A study of Mus musculus with 16 samples.

Results

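The semaphorins, their plexin and neuropilin receptors, and the ephrins with their Eph receptors were followed in RNA-seq libraries of mouse cortex and cerebellum. Members were all genes whose symbol in the deposited expression table belongs to the semaphorin classes 3 to 7, the plexins of groups A to D, *Nrp1* and *Nrp2*, the EphA and EphB receptors or the ephrin-A and ephrin-B ligands, with at least 10 counts summed over the 16 libraries. The rule gave 53 genes among 37583 genes listed, of which 21591 had at least 10 counts. They were 7 secreted class 3 semaphorins, 6 class 4, 2 class 5, 4 class 6 and 1 class 7 semaphorin, 4 A plexins, 3 B plexins, 2 C and D plexins, 2 neuropilins, 9 EphA and 5 EphB receptors, 5 ephrin-A and 3 ephrin-B ligands. *Efna4*, with 158 counts over all libraries, was the member nearest the minimum, and a second annotated *Efna5* entry with 0 counts was the 1 matching name outside it.

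PolyA-selected RNA was measured in the cortex and the cerebellum of 8 mice of the C57BL/6J strain, 4 wild type and 4 with the A391T variant of the metal transporter gene *Slc39a8* (also given as A393T in the labels), with 1 library per mouse and region. The groups were wild-type cortex, wild-type cerebellum, A391T cortex and A391T cerebellum, each with 4 libraries. By the published methods the wild-type mice were male and aged 12 weeks, and the cortex dissected was frontal cortex. The labels name no treatment. A391T changes 1 amino acid, so the RNA level of *Slc39a8* is no check of genotype, and each region is whole tissue, in which fewer cells of a type and less RNA per cell cannot be told apart.

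Semaphorins and ephrins are guidance cues that steer growing axons and shape synapses. Secreted class 3 semaphorins mostly bind a neuropilin, which has no signalling domain of its own, together with a plexin, whereas class 4 to 7 semaphorins are held at the membrane and bind plexins directly. Ephrin-A ligands are tethered to the membrane by a lipid anchor and mainly bind EphA receptors, ephrin-B ligands span the membrane and mainly bind EphB receptors, and signals run both into the receptor cell and into the ligand cell. In the adult brain many of these genes stay on and are best known for roles at dendritic spines and in plasticity.

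Counts on genes ran from 20813432 to 30497206 per library, with a median of 24488842. Tissue labels matched their defining markers: 7 of 7 cortex markers were higher in wild-type cortex, where they summed to between 524 and 564 TPM against 34.3 to 38.4 in wild-type cerebellum, and 8 of 8 cerebellum markers were higher in wild-type cerebellum, at 4215 to 4371 TPM against 125 to 143. TPM is a level per length of the gene, summing alike in all libraries, and was computed here from the counts. Other cells differed between libraries. The 7 choroid plexus markers (the tissue that secretes cerebrospinal fluid) summed to between 9.8 and 51.4 TPM in the 8 cortex libraries, to 54.6 TPM in wild-type cerebellum mouse 3 and 52.6 TPM in A391T cerebellum mouse 4, and to between 2399 and 8116 TPM in the other 6 cerebellum libraries, and no marker was at 0 in all libraries of a group. The 7 striatum markers summed to 270 TPM in A391T cortex mouse 3 and to between 613 and 936 TPM in the other 7 cortex libraries. Microglia markers summed to between 413 and 495 TPM in cortex, and in cerebellum to between 126 and 169 TPM. A further library, A391T cerebellum mouse 1, was the lowest of its 4 for 35 of the 53 genes, and wild-type cortex mouse 4 was the lowest of its 4 for 43 of the 53. The 8 columns of the deposited expression table that belong to 4 of the mice carry the name of another library than the count files do, and groups here follow the count files. The exchange is between wild-type mice 1 and 2 and A391T mice 3 and 4 in both regions, so under the other naming 2 of the 4 mice of each genotype change genotype, and which naming is right is not known. Every value for a genotype, and above all each difference between genotypes, carries this doubt. With the names of the table, 24 of the 53 genes were called between regions in wild type, 26 in A391T and 0 between genotypes, by the criteria given with each comparison.

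The first question was how the 53 genes differ between cerebellum and cortex in wild-type mice. The criterion for a call was an adjusted p under 0.05 (edgeR's quasi-likelihood test, Benjamini-Hochberg over all 16040 genes tested) with at least a 2-fold difference. Of the 53 genes, all of which were tested, 8 were higher in cerebellum and 16 were higher in cortex, while 10.5 percent of all genes tested were called higher in cerebellum and 14.2 percent higher in cortex. An adjusted p under 0.05 alone was reached by 41 of the 53 and by 67.8 percent of all genes. The median log2 fold change, cerebellum minus cortex in all that follows, was -0.23 over the 53 genes and 0.02 over all genes. The Eph receptors stood furthest apart, with log2 fold changes from -3.29 to 3.14 and 10 of 14 called, whereas 7 of 20 semaphorins, 3 of 9 plexins, 1 of 2 neuropilins and 3 of 8 ephrins were called. The plot of region differences by family shows these values for both genotypes.

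**Figure D1:**
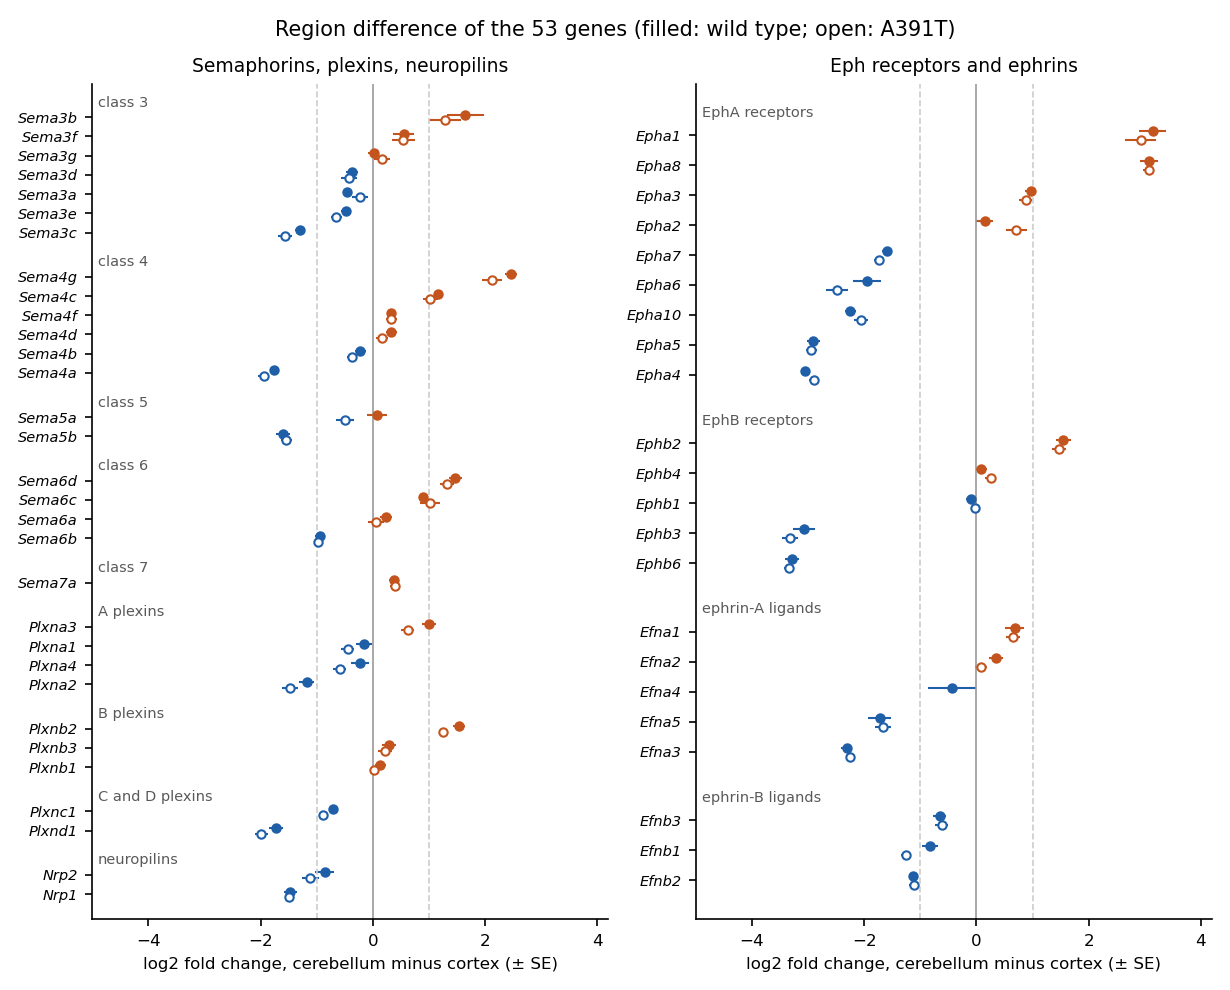
Log2 fold change (cerebellum minus cortex, ± SE, x axis) of the 53 genes by family, for wild type (filled points, n = 4 mice) and A391T (open points, n = 4 mice); blue lies toward cortex, orange toward cerebellum, and dashed lines mark a 2-fold difference. *Ephb6*, *Ephb3*, *Epha4* and *Epha5* lie furthest toward cortex and *Epha1*, *Epha8* and *Sema4g* furthest toward cerebellum, in both genotypes.

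Among the Eph receptors, *Ephb6* had the largest difference. It is on chromosome 6 from 41555481 to 41570508 (plus strand, all coordinates of genes on NCBIM37) and encodes a receptor without kinase activity. *Ephb6* was at 209, 233, 210 and 167 TPM in the cortex of wild-type mice 1 to 4 and at 28.3, 19.7, 22.2 and 22.6 TPM in their cerebellum, and in A391T mice at 220, 231, 238 and 197 TPM in cortex against 23.5, 22.1, 25.9 and 21.9 in cerebellum. Every cortex library thus lay above every cerebellum library, with a log2 fold change of -3.29 ± 0.13 (SE, adjusted p = 1.6e-09) in wild type. *Epha10*, the other Eph receptor without kinase activity, was higher in cortex as well, at 33.9 ± 3.77 TPM (SD, n = 4) against 7.92 ± 0.774 TPM, a log2 fold change of -2.25 ± 0.09.

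*Epha4*, which binds ephrins of both kinds and acts at spines touched by astrocytes, lies on chromosome 1 from 77363760 to 77511663 (minus strand). It was at 140, 159, 147 and 126 TPM in wild-type cortex and 18.3, 18.5, 20.3 and 19.1 TPM in wild-type cerebellum, and at 142, 142, 142 and 128 TPM in A391T cortex and 17.3, 19.0, 20.6 and 22.8 TPM in A391T cerebellum. The regions did not overlap in either genotype, and the wild-type log2 fold change was -3.06 ± 0.07 (edgeR, adjusted p = 4.7e-11), a difference of 8.33-fold.

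*Ephb3*, a kinase of the B group on chromosome 16 from 21204828 to 21223378 (plus strand), was at 21.5, 22.2, 16.6 and 16.6 TPM in wild-type cortex and 2.58, 1.47, 3.29 and 2.86 TPM in wild-type cerebellum. In A391T mice it was at 22.8, 23.5, 26.1 and 21.7 TPM in cortex against 2.56, 2.08, 3.25 and 2.13 in cerebellum. The lowest cortex library therefore stood well above the highest cerebellum library, and the wild-type log2 fold change was -3.07 ± 0.20 (edgeR, adjusted p = 9.6e-08).

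*Epha5*, a receptor for ephrin-A ligands known from topographic maps (chromosome 5, 84486816 to 84846407, minus strand), was at 41.7, 39.6, 39.6 and 34.2 TPM in wild-type cortex and 5.32, 4.77, 7.09 and 5.86 TPM in wild-type cerebellum. It was at 44.0, 41.0, 40.3 and 43.1 TPM in A391T cortex and 5.60, 5.31, 7.10 and 5.46 TPM in A391T cerebellum. Again no library of one region reached the other, with a log2 fold change of -2.91 ± 0.11 in wild type (edgeR, adjusted p = 1.3e-09). *Epha6* (-1.95 ± 0.25) and *Epha7* (-1.60 ± 0.08), close relatives of *Epha5* in the A group, were higher in cortex too.

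Toward the cerebellum, *Epha8* and *Epha1* had the largest differences of the 53 genes. *Epha8*, an A-group receptor on chromosome 4 from 136485334 to 136512731 (minus strand), was at 6.96, 9.48, 6.71 and 4.54 TPM in wild-type cortex and 61.7, 64.3, 64.6 and 71.3 TPM in wild-type cerebellum, and at 6.97, 8.40, 6.68 and 6.71 TPM in A391T cortex and 60.5, 72.6, 61.5 and 65.2 TPM in A391T cerebellum. Its cerebellum libraries were at least 60 TPM and its cortex libraries under 10, with a log2 fold change of 3.08 ± 0.16 in wild type (edgeR, adjusted p = 1.8e-08).

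*Epha1*, the founding member of the Eph family (chromosome 6, 42308486 to 42323267, minus strand), was a low-level gene: 0.269, 0.498, 0.355 and 0.768 TPM in wild-type cortex, 3.76, 4.55, 5.06 and 5.20 TPM in wild-type cerebellum, 0.282, 0.763, 0.517 and 0.458 TPM in A391T cortex and 2.95, 5.06, 3.69 and 5.13 TPM in A391T cerebellum. These rest on 6 to 15 counts per library in wild-type cortex and 80 to 109 in wild-type cerebellum. The log2 fold change was 3.14 ± 0.25 (edgeR, adjusted p = 5.9e-07). Of the exon bases of *Epha1*, 4.89 percent also belong to *Zyx* on the other strand, and the count files are marked as not stranded.

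*Ephb2*, a receptor at glutamatergic synapses (chromosome 4, 136203454 to 136391903, minus strand), was at 6.25, 7.62, 6.76 and 4.35 TPM in wild-type cortex and 18.7, 18.1, 22.1 and 22.4 TPM in wild-type cerebellum, and at 6.25, 5.99, 5.78 and 5.47 TPM in A391T cortex and 12.7, 18.5, 17.4 and 22.1 TPM in A391T cerebellum. Cerebellum lay above cortex in every library, with a log2 fold change of 1.55 ± 0.14 (edgeR, adjusted p = 1.7e-06). The remaining 4 receptors were not called in wild type. *Epha3* came close, with 0.97 ± 0.10, and passed with library totals in place of TMM (1.09) or without wild-type cortex mouse 3 (1.03). *Epha2*, *Ephb1* and *Ephb4* had values of 0.15 ± 0.15, -0.10 ± 0.08 and 0.09 ± 0.10.

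**Figure D2:**
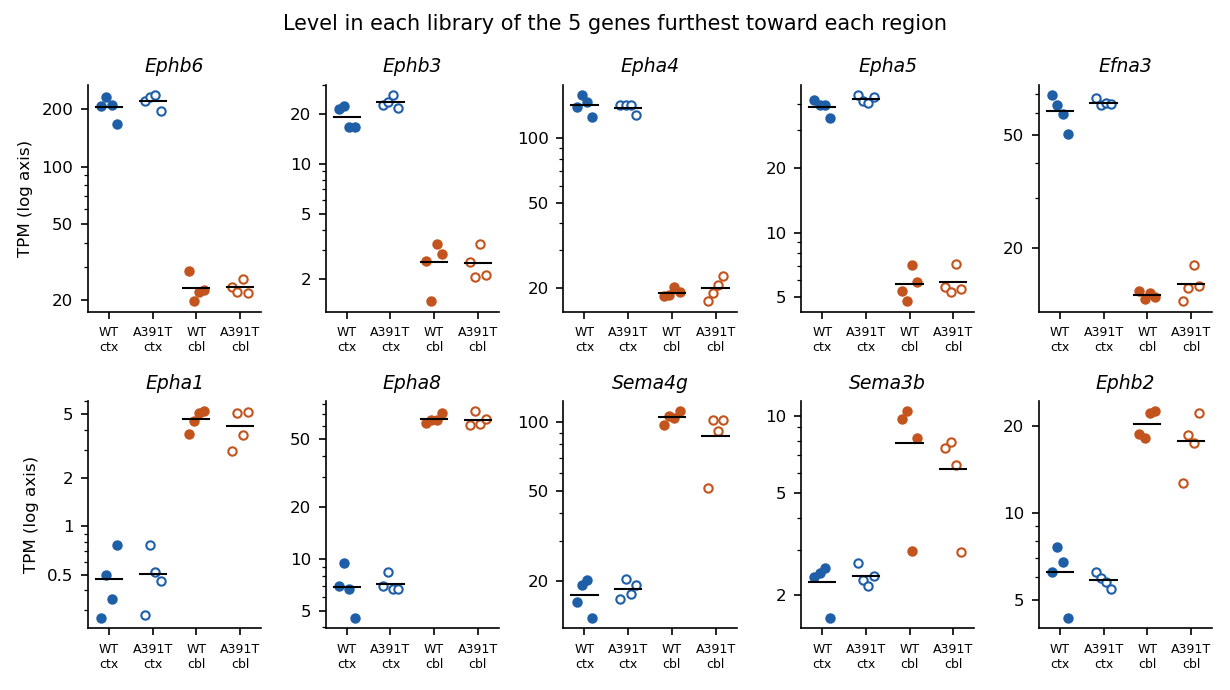
TPM (log axis, a separate scale for each gene) of the 5 genes called furthest toward cortex (top row) and the 5 called furthest toward cerebellum (bottom row) in wild type; each point is 1 library, bars are means of 4, filled points are wild type (WT), open points A391T, ctx is cortex and cbl cerebellum. The regions do not overlap within a genotype for these 10 genes, but *Sema3b* has 1 cerebellum library per genotype, at 2.96 and 2.94 TPM, just above the cortex libraries.

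The differences of single receptors gave each region its own mix of receptors. In wild-type cortex *Epha4* made up 51.9 ± 0.775 percent (SD, n = 4) of the summed TPM of the 9 EphA genes and *Epha8* 2.48 ± 0.518 percent, while in wild-type cerebellum *Epha8* made up 49.4 ± 1.90 percent and *Epha4* 14.4 ± 0.422 percent. *Ephb6* held 76.4 ± 0.985 percent of EphB TPM in cortex and 27.0 ± 3.37 percent in cerebellum, where *Ephb1* was ahead at 37.2 ± 2.77 percent although its own level was 30.8 ± 2.75 TPM in cortex against 31.9 ± 3.43 in cerebellum. The summed level of the 14 Eph receptors was 549, 602, 558 and 463 TPM in wild-type cortex and 216, 205, 228 and 223 TPM in wild-type cerebellum. It was thus lower in every cerebellum library than in any cortex library.

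**Figure D3:**
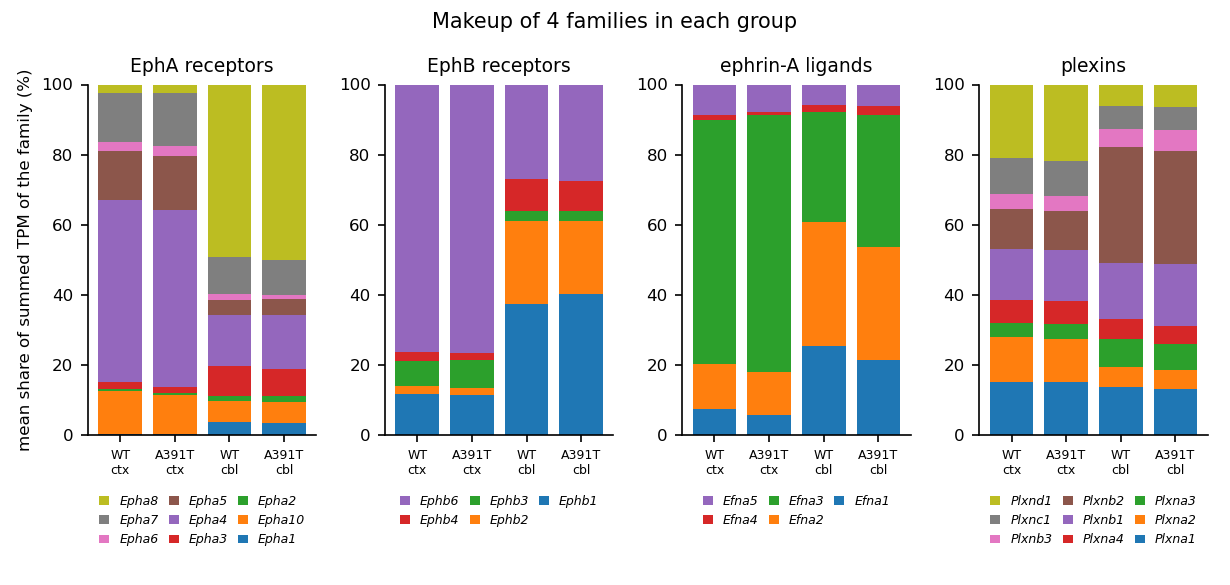
Mean share (percent, y axis) of each gene in the summed TPM of its family, for EphA receptors, EphB receptors, ephrin-A ligands and plexins, in wild-type (WT) and A391T cortex (ctx) and cerebellum (cbl), n = 4 libraries per bar. *Epha4* (51.9 percent) leads the EphA and *Ephb6* (76.4 percent) the EphB receptors in wild-type cortex, and *Epha8* (49.4 percent) and *Ephb1* (37.2 percent) lead them in wild-type cerebellum.

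The proximal promoters of the 2 receptors furthest toward each region are printed so that the sequence before each start can be set beside these differences. They are the 250 bases before the annotated start, from RefSeq on GRCm38.p6, each 5′ to 3′ on the strand of its gene. Capitals mark matches to the GC box (GGGCGG or its reverse complement CCGCCC), the CCAAT box (CCAAT or ATTGG) and the E-box CAGCTG.
Ephb6 promoter, chr6:41605261-41605510, plus strand: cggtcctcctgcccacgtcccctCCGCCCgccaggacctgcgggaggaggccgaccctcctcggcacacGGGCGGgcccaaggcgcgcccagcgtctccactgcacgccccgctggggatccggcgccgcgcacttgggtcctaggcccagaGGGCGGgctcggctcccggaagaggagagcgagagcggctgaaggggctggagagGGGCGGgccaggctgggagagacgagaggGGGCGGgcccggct
Ephb3 promoter, chr16:21204545-21204794, plus strand: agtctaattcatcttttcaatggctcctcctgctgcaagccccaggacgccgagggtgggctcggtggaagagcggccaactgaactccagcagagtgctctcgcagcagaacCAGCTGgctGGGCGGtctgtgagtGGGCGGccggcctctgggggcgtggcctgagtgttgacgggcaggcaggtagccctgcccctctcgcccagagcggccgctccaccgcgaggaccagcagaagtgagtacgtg
Epha1 promoter, chr6:42373269-42373518, minus strand: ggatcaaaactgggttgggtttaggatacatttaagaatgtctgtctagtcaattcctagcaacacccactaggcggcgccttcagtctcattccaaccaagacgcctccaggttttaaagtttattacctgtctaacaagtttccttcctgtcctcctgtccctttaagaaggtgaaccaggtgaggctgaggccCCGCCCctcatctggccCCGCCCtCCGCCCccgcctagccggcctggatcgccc
Epha8 promoter, chr4:136956817-136957066, minus strand: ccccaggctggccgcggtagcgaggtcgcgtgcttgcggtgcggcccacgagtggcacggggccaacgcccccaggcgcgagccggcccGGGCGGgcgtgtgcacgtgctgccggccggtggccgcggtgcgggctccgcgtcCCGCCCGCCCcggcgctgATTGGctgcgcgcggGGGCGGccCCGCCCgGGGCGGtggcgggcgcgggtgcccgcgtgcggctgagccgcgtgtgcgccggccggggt
Each of these 4 windows holds a GC box, with 5 matches for *Ephb6*, 2 for *Ephb3*, 3 for *Epha1* and 6 for *Epha8*, and none holds TATAAA on either strand. CG dinucleotides number 27, 16, 9 and 46 in the same order, so the window of *Epha1* is the poorest in CG and that of *Epha8* the richest. Promoters were listed for 47 of the 53 genes by symbol, in 61 windows. A GC box was in 46 of the 61 windows (75.4 percent), in 55.1 percent of the windows of all genes tested whose symbol matched and in 32.7 percent of all windows listed. It was in 19 of 21 windows of genes called higher in cortex and in 8 of 10 of those called higher in cerebellum. The E-box CAGCTG was in 9 of the 61 windows (14.8 percent, against 12.6 percent for genes tested and 13 percent of all windows), the CCAAT box in 19 (31.1 percent, against 34.6 and 33.8 percent) and TATAAA in 1 (1.64 percent, against 6.7 and 12.4 percent). These are matches of letters only.

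The ephrins, the ligands of the Eph receptors, had 3 of 8 genes higher in wild-type cortex and 0 in cerebellum, beside the background of 14.2 and 10.5 percent of all genes, and with 8 genes these counts are no result about the family. *Efna3*, an ephrin-A known from the contact of astrocytes with spines (chromosome 3, 89117821 to 89126887, minus strand), was at 69.6, 63.9, 59.4 and 50.5 TPM in wild-type cortex, 14.0, 13.2, 13.8 and 13.4 TPM in wild-type cerebellum, 67.9, 64.0, 64.9 and 64.7 TPM in A391T cortex and 12.9, 14.4, 17.4 and 14.6 TPM in A391T cerebellum. Regions were apart in all 8 mice, with a log2 fold change of -2.32 ± 0.10 (edgeR, adjusted p = 4.3e-09). An antisense entry, Gm15998, shares 14.13 percent of the exon bases of *Efna3*. *Efna5*, a repellent ligand of *Epha4* and *Epha5*, was at 7.61 ± 2.47 TPM in wild-type cortex and 2.55 ± 0.295 TPM in cerebellum (SD, n = 4; log2 fold change -1.73 ± 0.21). Its second annotated entry covers 59.92 percent of its exon bases on the same strand. Reads in shared bases can be set aside as ambiguous for both entries. The TPM of *Efna5*, and its share among the ephrin-A ligands, may therefore be too low. *Efnb2*, a transmembrane ligand with a role in vessels as well as synapses, was called at -1.13 ± 0.08, but not when the test was made against a 2-fold change (glmTreat adjusted p = 0.091).

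The other ephrins were under the 2-fold limit in wild type. *Efnb3*, the ephrin with the highest level, was at 124 ± 14.3 TPM in cortex against 87.4 ± 13.4 in cerebellum, a log2 fold change of -0.65 ± 0.11. *Efnb1* had -0.83 ± 0.15, *Efna1* 0.68 ± 0.17, *Efna2* 0.35 ± 0.12 and *Efna4* -0.43 ± 0.43. In the makeup of the ephrin-A ligands, *Efna3* made up 69.9 ± 4.39 percent in cortex and 31.3 ± 2.62 percent in cerebellum, beside *Efna2* at 12.8 ± 1.42 and 35.6 ± 3.36 percent. *Efna1*, which endothelial cells are known to make, was at 8.48 TPM in wild-type cortex mouse 4 and 4.88 to 6.19 TPM in the other 3. That library also had the highest sum of the 7 endothelial markers, at 500 TPM against 334 to 394 TPM, and the part of those cells in the level of *Efna1* was not tested.

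Of the 20 semaphorins, 4 were higher in wild-type cerebellum and 3 in cortex, beside the background of 10.5 and 14.2 percent of all genes, so the counts are no result about the family. *Sema4g*, a transmembrane ligand of plexin-B2 with a known role in cerebellar granule cells (chromosome 19, 45063591 to 45077887, plus strand), was at 16.1, 19.2, 20.2 and 13.7 TPM in wild-type cortex and 97.9, 107, 105 and 112 TPM in wild-type cerebellum. In A391T mice it was at 16.6, 20.3, 17.5 and 19.1 TPM in cortex against 51.2, 103, 91.3 and 103 in cerebellum. The cerebellum of A391T mouse 1 was the lowest of its group and still lay above all cortex libraries. The wild-type log2 fold change was 2.46 ± 0.10 (edgeR, adjusted p = 3.1e-09).

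*Sema4c*, another class 4 ligand of plexin-B2, was at 16.8 ± 0.322 TPM in wild-type cortex and 41.7 ± 3.94 TPM in cerebellum (SD, n = 4), a log2 fold change of 1.16 ± 0.07. *Plxnb2*, a receptor of both and of other class 4 semaphorins (chromosome 15, 88985979 to 89011218, minus strand), was at 37.0 ± 6.14 TPM in cortex against 119 ± 4.94 in cerebellum, with 1.53 ± 0.10. These 3 genes were thus called higher in cerebellum, and *Plxnb2* made up 11.4 ± 0.192 percent of plexin TPM in cortex and 33.2 ± 1.50 percent in cerebellum. *Sema4a*, an immune and retinal semaphorin, went the other way within class 4, with 40.9 ± 1.92 TPM in cortex against 13.3 ± 0.469 in cerebellum (-1.77 ± 0.06). *Sema4d*, the ligand of plexin-B1, had 0.33 ± 0.10 and *Plxnb1* 0.13 ± 0.10, neither called. *Sema4f*, the class 4 gene with the highest level in cortex and second to *Sema4g* in cerebellum, was at 50.5 ± 3.34 TPM in cortex against 70.6 ± 3.72 in cerebellum (0.33 ± 0.06), and *Sema4b* had -0.23 ± 0.10.

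Class 6 semaphorins act as both ligands and receptors and are known from granule cell migration in the cerebellum. *Sema6d* was called higher in cerebellum, at 75.8 ± 5.74 TPM against 24.7 ± 4.97 TPM (1.47 ± 0.12). *Sema6b*, with the second highest semaphorin level, was at 186 ± 22.8 TPM in cortex against 107 ± 2.82 in cerebellum. Its value of -0.94 ± 0.08 missed the 2-fold limit and passed it without wild-type cortex mouse 4, at -1.02. *Sema6c* missed it from the other side (0.89 ± 0.06), and passed with library totals, at 1.01, while *Sema6a* had 0.24 ± 0.11. In class 5, *Sema5b* was higher in cortex (11.9 ± 1.63 against 4.34 ± 0.601 TPM, log2 fold change -1.60 ± 0.12), and *Sema5a* had 0.07 ± 0.17. *Sema7a*, a lipid-anchored semaphorin that binds plexin-C1 and integrins, had the highest level of all 53 genes in both regions, from 224 to 299 TPM in wild-type cortex and from 360 to 408 TPM in wild-type cerebellum, or a mean of 35.8 and 39.7 percent of semaphorin TPM. Its log2 fold change was 0.37 ± 0.09 (edgeR, adjusted p = 0.0026), under the 2-fold limit.

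Among secreted class 3 semaphorins, *Sema3b* was called higher in cerebellum and *Sema3c* higher in cortex. *Sema3c*, a ligand of both neuropilins, was at 16.7 ± 1.97 TPM in cortex against 7.59 ± 0.328 in cerebellum (-1.29 ± 0.09). *Sema3b* (chromosome 9, 107500005 to 107511560, minus strand) was at 2.35, 2.44, 2.56 and 1.63 TPM in wild-type cortex and 9.70, 10.4, 2.96 and 8.22 TPM in wild-type cerebellum, and at 2.68, 2.29, 2.18 and 2.38 TPM in A391T cortex and 7.47, 7.87, 6.44 and 2.94 TPM in A391T cerebellum. Its log2 fold change was 1.65 ± 0.34 in wild type (edgeR, adjusted p = 0.0011), and it was not called against a 2-fold change (glmTreat adjusted p = 0.06) or over the wild-type mice with the same name in both sources (1.25, edgeR, adjusted p = 0.097). The 2 low cerebellum libraries, wild-type mouse 3 and A391T mouse 4, were those with the least choroid plexus markers, 54.6 and 52.6 TPM. In a fit chosen after seeing the data, each of these was the only cerebellum library against the 4 cortex libraries of its genotype. The fit assumes that the lone library varies like the cortex libraries. *Sema3b* then had 0.25 in wild type and 0.17 in A391T. Since its low level in these libraries was already seen, the outcome was fixed in advance and is no test. Without wild-type mouse 3 the wild-type value was 1.91 ± 0.15. The part of choroid plexus RNA in the difference of *Sema3b* was not tested.

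**Figure D4:**
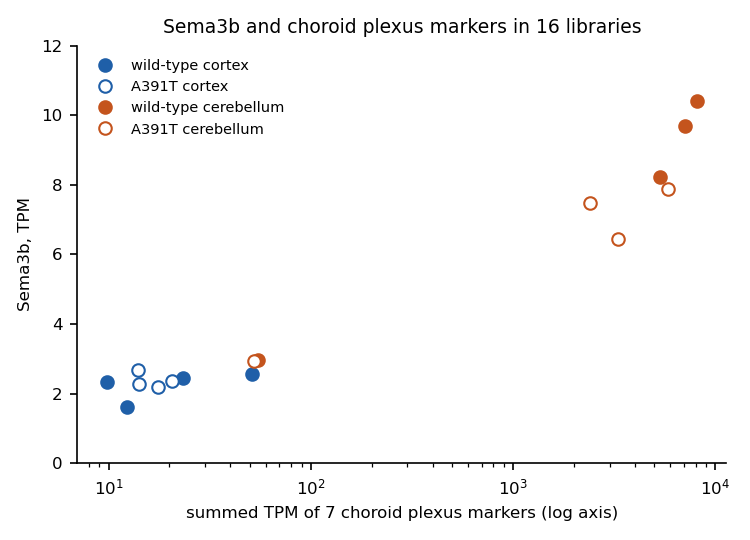
*Sema3b* (TPM, y axis) against the summed TPM of 7 choroid plexus markers (x axis, log scale) in the 16 libraries; blue is cortex, orange cerebellum, filled wild type, open A391T. The 2 cerebellum libraries with under 60 TPM of markers have 2.96 and 2.94 TPM of *Sema3b*, beside cortex libraries at 1.63 to 2.68, and the other 6 cerebellum libraries have 6.44 to 10.4.

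*Sema3f*, the class 3 gene with the highest mean over all libraries but below *Sema3c* in cortex, was at 12.5, 13.1, 13.1 and 10.4 TPM in wild-type cortex and 16.8, 14.2, 29.5 and 19.8 TPM in wild-type cerebellum, with 0.56 ± 0.19, under the 2-fold limit. Wild-type cerebellum mouse 3, low in *Sema3b*, was the highest library for *Sema3f*, and the value without it was 0.30 ± 0.12. In the fit with 1 cerebellum library used for *Sema3b*, which in wild type keeps this highest library, *Sema3f* had 1.12 ± 0.15 in wild type and 0.42 ± 0.18 in A391T. *Sema3a*, *Sema3d* and *Sema3e*, which lie in a row on chromosome 5, had -0.45 ± 0.08, -0.37 ± 0.11 and -0.48 ± 0.09, and *Sema3g* had 0.01 ± 0.10.

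Of the neuropilins and the plexins other than *Plxnb1* and *Plxnb2*, *Nrp1*, *Plxnd1* and *Plxna2* were called higher in cortex and the others were not called. *Nrp1*, the receptor subunit for *Sema3a* and for VEGF, was at 22.3 ± 2.68 TPM in wild-type cortex and 8.93 ± 1.63 TPM in cerebellum (-1.47 ± 0.12), and *Nrp2*, which favours *Sema3f*, had -0.86 ± 0.16 and was not called. *Plxnd1*, the receptor of *Sema3e* with known roles in vessels and corticostriatal circuits, was at 67.6 ± 12.2 TPM in cortex against 22.8 ± 2.78 in cerebellum (-1.72 ± 0.13), and made up 20.9 ± 1.17 and 6.32 ± 0.471 percent of plexin TPM. *Plxna2*, which pairs with class 3 and class 6 semaphorins, was at 41.5 ± 9.28 TPM in cortex against 20.3 ± 1.90 in cerebellum (-1.18 ± 0.13), and was not called against a 2-fold change (glmTreat adjusted p = 0.16). *Plxna3* sat on the limit with a log2 fold change of 1.00 ± 0.12, just under 1, and was called at 1.01 with the mouse as a block. *Plxna1*, the A plexin with the highest level, had -0.16 ± 0.15, *Plxna4* -0.23 ± 0.16, *Plxnb3* 0.29 ± 0.13, and *Plxnc1* -0.71 ± 0.07.

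Members near each other on a chromosome, with other genes between them left aside, did not always share a direction. Of 9 pairs of members less than 1000 kb apart on NCBIM37, *Ephb6* and *Epha1*, 738.0 kb apart on chromosome 6, were the genes furthest toward cortex and toward cerebellum of all 53 (-3.29 and 3.14). *Efna1* and *Efna3*, 32.8 kb apart on chromosome 3, had 0.68 and -2.32, and *Efna4*, 10.4 kb beyond *Efna3*, had -0.43. *Ephb2* and *Epha8*, 93.4 kb apart on chromosome 4, were both higher in cerebellum (1.55 and 3.08).

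Genes that carry or adjoin these signals were read from 2 lists. Of 35 entries for signalling partners of semaphorins and Eph receptors, 4 were higher in wild-type cerebellum, 7 higher in cortex and 24 not called, with a median of -0.07. Calls in this list made up 31.4 percent, near the background of 10.5 percent higher in cerebellum plus 14.2 percent higher in cortex, and are no result about the list. Those furthest toward cortex were *Ngef*, the exchange factor ephexin that *Epha4* uses (-4.80 ± 0.21), *Kalrn*, which acts in dendritic spines (-3.80 ± 0.16), and *Chn1*, the Rac regulator α-chimaerin downstream of *Epha4* (-3.17 ± 0.07). Toward cerebellum were *Tiam1* (2.02 ± 0.14) and *Vav3* (1.86 ± 0.12), exchange factors that Eph receptors recruit, and *Dpysl4*, of the collapsin response mediators (1.42 ± 0.06). Of 21 tested Slit, Robo, netrin and netrin receptor genes, 4 were higher in cerebellum and 11 in cortex, or 71.4 percent called beside 24.7 percent of all genes. Their median was -1.17, beside 0.02 over all genes. They included the receptor *Robo3* (-5.78 ± 0.24), the netrin *Ntn5* (-5.64 ± 0.47) and the ligand *Slit1* (-4.74 ± 0.34) toward cortex, and *Ntn1* (2.82 ± 0.12), its receptor *Unc5b* (2.06 ± 0.10) and *Ntn4* (1.86 ± 0.08) toward cerebellum.

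The next question was whether the A391T mice, which share no library with the wild type, differ between regions in the same genes. Of the 52 genes tested (*Efna4* was too low), 9 were higher in cerebellum and 18 in cortex, beside 9.8 and 14.9 percent of 16005 genes tested. All 24 genes called in wild type were called in the same direction in A391T, and 51 of 52 had the same sign, the exception being *Sema5a* (0.07 ± 0.17 in wild type, -0.50 ± 0.17 in A391T). No matching count over all genes is given, so this agreement is no result about these genes. Against a 2-fold change, *Efnb2* (glmTreat adjusted p = 0.1) and *Sema3b* (glmTreat adjusted p = 0.28) lost their A391T calls. Log2 fold changes in A391T were -3.35 ± 0.09 for *Ephb6*, -2.90 ± 0.08 for *Epha4*, -2.94 ± 0.10 for *Epha5*, 3.07 ± 0.10 for *Epha8* and 2.93 ± 0.27 for *Epha1*, near their wild-type values. *Sema4g* differed more than these, with 2.46 in wild type and 2.12 in A391T. The median difference between the genotypes' values, A391T minus wild type, was -0.10, from -0.57 to 0.57.

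Calls in A391T alone were made for 3 genes. *Efnb1* had -1.26 ± 0.09 in A391T and -0.83 ± 0.15 in wild type, and kept its A391T call under every alternative run, the test against a 2-fold change included. *Nrp2* had -1.11 ± 0.15 and -0.86 ± 0.16, and lost the call without A391T cortex mouse 4 (-0.97) and against a 2-fold change (glmTreat adjusted p = 0.41). It also lost the call with library totals (-0.98) and with the names of the expression table, without a block (-0.998) or with it (-0.999). *Sema6c* had 1.02 ± 0.18 and 0.89 ± 0.06, and lost the call with the mouse as a block (0.97), without A391T cerebellum mouse 1 (0.80) and without A391T cortex mouse 1 (1.00, just under the limit), as well as against a 2-fold change (glmTreat adjusted p = 0.91). *Sema4c* (1.02 ± 0.14) was called in A391T and lost the call without the same libraries, at 0.87 and 0.98, and against a 2-fold change (glmTreat adjusted p = 0.83). Conversely, *Sema6b* (-0.97 ± 0.08) was called without either of them, at -1.03 and -1.01. In the fit with 1 cerebellum library, *Nrp2* (-0.96), *Sema4c* (0.94) and *Sema6c* (0.735) were under the 2-fold limit in A391T. *Sema6b* (-1.02) and *Epha2* (1.035) were over it there. The interaction of region and genotype called 0 of the 53 genes and 0 percent of 16589 genes. Its smallest adjusted p over the 53 was 0.77 (edgeR), 4 had an unadjusted p under 0.05 beside 805 of all 16589 genes, and DESeq2 called 0 of the 53 as well. The number with an unadjusted p under 0.05 was 7 (beside 1579 of all genes) with the names of the expression table and 10 (beside 1350 of 16755) over the mice with the same name in both sources, with 0 of the 53 called in either.

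The last question was whether A391T mice differ from wild type within a region. In cortex 0 of 52 genes tested were called at an adjusted p under 0.05, beside 0.0126 percent of 15815 genes, and in cerebellum 0 of 53, beside 0 percent of 15668 genes. DESeq2 called 0 of the 53 in both regions. The median log2 fold change, A391T minus wild type, was 0.03 in cortex, from -0.44 to 0.28, and -0.06 in cerebellum, from -0.49 to 0.18. Unadjusted p-values were under 0.05 for 4 genes in cortex and 6 in cerebellum by edgeR, and for 5 and 7 by DESeq2. Over all genes edgeR gave 748 of 15815 in cortex and 1341 of 15668 in cerebellum, so the counts among the 53 are no result about them. In cortex these were *Epha2* (-0.44 ± 0.16), *Sema3a* (-0.24 ± 0.10), *Ephb3* (0.27 ± 0.10) and *Sema4a* (0.19 ± 0.06), named after their values were seen. In cerebellum they were *Sema5a* (-0.42 ± 0.18), *Efna1* (-0.35 ± 0.11), *Sema3c* (-0.32 ± 0.13), *Plxna3* (-0.30 ± 0.10), *Sema3e* (-0.24 ± 0.09) and *Plxnb2* (-0.23 ± 0.08). For 5 of these 6 genes A391T cerebellum mouse 1 was the lowest library, at 6.29 TPM of *Sema5a* against 10.3 to 12.7 TPM in the other A391T mice.

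**Figure D5:**
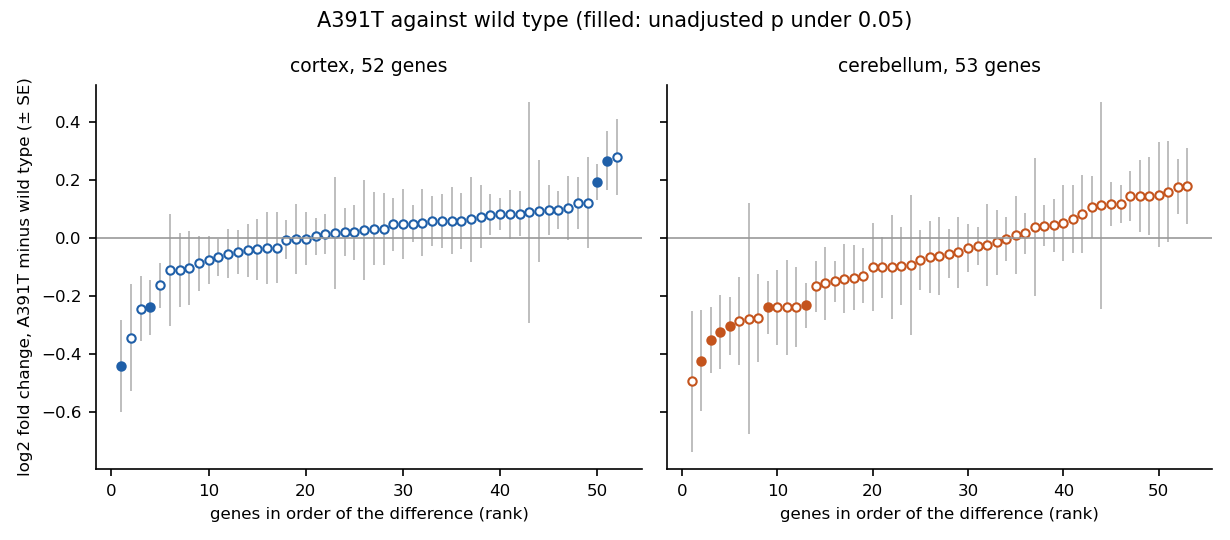
Log2 fold change of A391T minus wild type (± SE, y axis) for the genes tested in cortex (52, left) and cerebellum (53, right), in order of size (x axis, rank); filled points have an unadjusted p under 0.05. Values lie between -0.44 and 0.28 in cortex and between -0.49 and 0.18 in cerebellum, and none passed the adjusted threshold.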

How the data were processed

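PolyA-selected RNA of snap-frozen cortex and cerebellum from 8 mice was sequenced, and the authors aligned reads to mm9 with STAR and deposited HTSeq counts per Ensembl gene, which their deposited names mark as not stranded although the library kit was directional. The authors also deposited a table of RPKM values with gene lengths, from which names and lengths were taken, and its RPKM values served to compare library names. Of its 16 columns, 8 matched the counts of another library than the one they name. Rows that name no gene were left out.

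From the counts, edgeR 4.0.16 was run with filterByExpr, TMM scaling and the quasi-likelihood test, with p-values adjusted by Benjamini and Hochberg's method across every gene tested, separately for each pair of groups, and with all 16 libraries for the interaction. Region differences were called where the adjusted p was under 0.05 and the difference 2-fold or more, and genotype and interaction differences at an adjusted p under 0.05. The test was checked on simulated counts. TPM was computed from counts and gene lengths. Counts on genes ran from 20813432 to 30497206 per library, and genes with few counts have wide errors. Replicate libraries differed by more than sampling noise (chi-square per degree of freedom 2.934 to 69.044, median 8.398). Values of 57.731 to 69.044 were those of the pairs with A391T cerebellum mouse 1, and the highest of the other pairs was 31.926, in wild-type cortex.

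Genes were named by a rule: the 12 largest called differences per direction in wild type, the highest level in each class, members called between genotypes or called in 1 genotype only, members nearest the count minimum, and up to 3 genes per direction of each pathway list. Other members are named so that every member is accounted for, after their values were seen. The members and lists were chosen with earlier results of these data known.

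Cortex and cerebellum came from the same mice by their titles. The correlation of deviations from the group means was -0.099 to 0.119 for the 8 same-mouse pairs (median -0.055) and -0.167 to 0.152 for 24 pairs of different mice (median 0.015), so a block for the mouse was an alternative. Others were DESeq2 1.42.0, other scaling, no filter, 1 model for all libraries, a test against a 2-fold change, the names of the RPKM table, each library left out, and, chosen after seeing the data, the cerebellum library lowest in choroid plexus markers alone.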

Additional observations from a re-analysis of the deposited data

Results flagged for a closer look

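Among 124 groups of 4 libraries, over the 31 genes named by rule, 4 held a library far from the other 3 by Dixon's test at the 95 percent level, which marks some groups by chance alone. *Epha8* was at 8.40 TPM in A391T cortex mouse 2 and at 6.68 to 6.97 TPM in the other 3. *Plxnb2* was at 35.0 TPM in A391T cortex mouse 1 and at 38.7 to 39.2 TPM in the others. *Epha4* was at 128 TPM in A391T cortex mouse 4 and at 142 TPM in the others. *Epha5* was at 7.10 TPM in A391T cerebellum mouse 3 and at 5.31 to 5.60 TPM in the others.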

How the results depend on the processing

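Over the 62 log2 fold changes of the named genes in both region comparisons, 1198 recomputed values kept direction and call, 21 gained and 21 lost the call, and 0 reversed. The largest shift in counts came from the adjusted p alone, which called 41 genes in wild type (17 higher in cerebellum) and 44 in A391T (17 higher in cerebellum). Over all genes it called 10875 of 16040 in wild type and 10055 of 16005 in A391T. Leaving out 1 library at a time gave 24 to 26 genes in wild type and 26 to 27 in A391T. The mouse as a block gave 25 in wild type and 26 in A391T, and beyond *Plxna3* and *Sema6c* it changed no other call. The test against a 2-fold change called 21 and 22. Library totals raised the median of all genes by 0.12 in wild type and 0.13 in A391T and called 27 and 26, with *Efnb2* (-0.99) and *Nrp2* (-0.98) no longer called in A391T. With the names of the RPKM table *Nrp2* fell just short of the 2-fold limit in A391T, and with these names and a block *Sema3b* had 0.96 in wild type and was not called. No paired analysis was possible between genotypes because they are different mice. The genotype and interaction comparisons called 0 of the 53 genes under every alternative run, while over all genes DESeq2 called 15 in cortex, 30 in cerebellum and 1 in the interaction. Low counts limit *Epha1* and *Efna4*.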
